A study of Mus musculus with 3 samples.

Results

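Imprinted genes are transcribed mainly or only from the chromosome inherited from 1 parent, and 40 such genes were followed in glomeruli, the filtering units of the kidney, from nondiabetic FVB/NJ mice. The members were all probe sets whose only gene symbol in the platform annotation is on the list of 40. This gave 36 genes with 100 probe sets, out of 18194 genes on the array. The other 4 genes (H19, Rtl1, Nespas and Zrsr1) had no probe set of their symbol alone, and a probe set annotated to both H19 and Mir675 was read apart from the members. The series was built around diabetic OVE26 mice and nondiabetic FVB mice. The 3 samples used here are all of the FVB group, from male mice aged 8 weeks and fed a Purina diet, each with 1 array of glomeruli isolated from 1 mouse. OVE26 mice were not analysed here, so the group has no contrast, and the data give levels and the spread between mice 1, 2 and 3.

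Imprinting is set in the germ line by DNA methylation at control regions, which the embryo keeps through its early reprogramming. The genes lie in clusters that hold maternally and paternally expressed members, and several clusters carry a long non-coding RNA that silences neighbours on its own chromosome. Many imprinted genes act in fetal and placental growth, and many are turned down in tissues after birth. Their imprint can also depend on the tissue. An inbred strain carries the same sequence on both parental chromosomes, and array probes do not tell them apart, so every value below is the sum over both alleles. In an isolate of many cells, fewer cells of a type and less RNA per cell cannot be told apart.

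The promoters of 2 neighbouring pairs are shown because the pairs differ in what the arrays measured. Peg3 and Usp29 start head to head from a common region, and Peg3 was above background while Usp29 was not. Dlk1 and Meg3 belong to the same cluster and are expressed from opposite parental chromosomes, and in these mice their highest values fell in different animals. Each window runs from 250 bases before to 50 after the start of the gene, 5′ to 3′ on the strand of the gene, and capitals mark CpG, the dinucleotide that carries DNA methylation. The sequences are RefSeq windows of the C57BL/6J assembly GRCm38.p6, not of FVB, at chr7:6730370-6730669 (minus strand) for Peg3, chr7:6730333-6730632 (plus strand) for Usp29, chr12:109452573-109452872 (plus strand) for Dlk1 and chr12:109540746-109541045 (plus strand) for Meg3.
Peg3: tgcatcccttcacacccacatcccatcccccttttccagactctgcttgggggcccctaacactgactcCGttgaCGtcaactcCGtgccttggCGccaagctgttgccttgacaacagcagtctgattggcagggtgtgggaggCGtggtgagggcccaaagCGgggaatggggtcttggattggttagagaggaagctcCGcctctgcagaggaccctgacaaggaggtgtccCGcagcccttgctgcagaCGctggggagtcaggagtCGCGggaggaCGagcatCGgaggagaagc
Usp29: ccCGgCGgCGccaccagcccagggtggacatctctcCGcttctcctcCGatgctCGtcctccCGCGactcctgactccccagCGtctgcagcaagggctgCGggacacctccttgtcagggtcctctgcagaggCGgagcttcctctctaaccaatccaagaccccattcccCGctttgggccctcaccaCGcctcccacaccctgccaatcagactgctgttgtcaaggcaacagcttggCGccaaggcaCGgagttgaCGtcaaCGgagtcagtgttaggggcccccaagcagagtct
Dlk1: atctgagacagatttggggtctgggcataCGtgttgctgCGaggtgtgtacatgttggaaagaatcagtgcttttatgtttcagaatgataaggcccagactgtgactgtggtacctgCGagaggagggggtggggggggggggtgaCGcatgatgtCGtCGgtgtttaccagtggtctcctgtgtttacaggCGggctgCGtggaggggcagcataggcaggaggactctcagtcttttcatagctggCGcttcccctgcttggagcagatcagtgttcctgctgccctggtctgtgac
Meg3: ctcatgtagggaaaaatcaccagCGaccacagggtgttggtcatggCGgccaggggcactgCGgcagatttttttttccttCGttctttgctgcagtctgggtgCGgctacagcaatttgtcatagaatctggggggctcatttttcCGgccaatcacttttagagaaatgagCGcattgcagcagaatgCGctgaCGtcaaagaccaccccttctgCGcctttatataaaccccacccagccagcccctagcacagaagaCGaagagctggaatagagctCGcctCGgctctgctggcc
The windows of Peg3 and Usp29 share 263 bases, read on opposite strands, and hold 13 and 17 CpG. Those of Dlk1 and Meg3 hold 9 and 13 CpG. The hexamer TGCCGC, which the imprint-keeping zinc finger protein ZFP57 binds when methylated, was searched on both strands and occurred 1 time in the window of Meg3 and in none of the other 3. A window was found for 32 of the 40 members, and 9 of these (28.1%) held the hexamer, against 11.6% of the first windows of all 27025 genes in the table. The hexamer contains a CpG, and the median was 15 CpG in the 32 member windows and 7 in all first windows. Among genes above background, with a median of 21 CpG, 20.3% held the hexamer. Of the 18 members above background with a window, with a median of 14 CpG, 5 held it (27.8%). The part of CpG content in these shares was not tested. The letters CCATNTT, a core of the motif of the factor YY1, searched on both strands, were in 4 of 32 member windows (12.5%) and in 16.3% of all first windows.

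Values are log2 GCRMA expression values, errors are SD over the 3 mice, and the background threshold of an array was the 95th percentile of its 80 olfactory and vomeronasal receptor probe sets (2.58, 2.91 and 2.86 in mice 1, 2 and 3). A gene with several probe sets was represented by the one with the highest mean. Markers of the labelled tissue were present, as every array had signal above background for 8 of 8 podocyte, 10 of 10 glomerular endothelial and 8 of 8 mesangial and pericyte genes. Tubule RNA was present too. On every array 12 of 14 proximal tubule genes and 6 of 12 genes of distal nephron segments passed, with Umod of the latter at 12.47, 13.56 and 13.06. These counts do not show how pure the isolates were. Levels of marker RNA of other cell types differed between the isolates, and whether the numbers of these cells differed was not tested. Of 12 proximal tubule genes above background, 11 were highest in mouse 3, with mean levels of 5.75, 6.39 and 8.45 in mice 1, 2 and 3. Of 6 genes of distal nephron segments (loop to collecting duct), 5 were highest in mouse 2 (mean levels 6.73, 8.30 and 7.61), and of 7 leukocyte genes 5 were highest in mouse 1 (6.72, 5.75 and 4.94). The 3′ minus 5′ difference of the actin controls, which reflects RNA integrity, was 1.49, 1.81 and 2.05, and that of Gapdh was 0.48, 1.08 and 0.92.

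Of the 36 imprinted genes, 22 passed the threshold in every mouse, 12 in no mouse and 2 in 1 mouse. The share above background was 61.1%, close to the 58.3% of all genes. By single probe sets it was 50 of 100, against 52.9% of all probe sets with 1 symbol. The spread between mice was small for most members. The median SD of the 22 was 0.18, against 0.16 for all 10610 genes above background, and 18 of 22 had a range between the highest and the lowest mouse under 0.5 on the log2 scale (81.8%, against 75.2%). A 2-fold range was found for 1 of 22, Dlk1, against 5.94% of all genes. The count was 0 without mouse 2, without mouse 3 or when all probe sets of a gene were averaged. By single probe sets it was 5 of 50, against 5.88% of all probe sets above background. Of the 22 members, 6, 9 and 7 were highest in mice 1, 2 and 3, where all genes gave 35.1%, 28.6% and 36.3%.

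**Figure D1:**
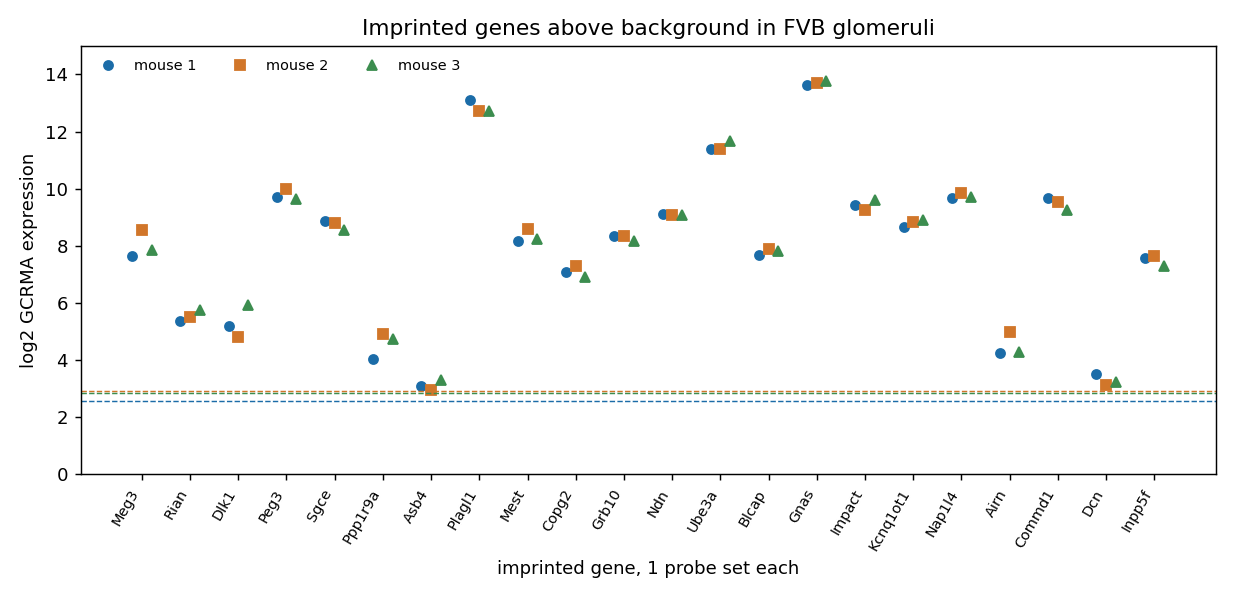
Log2 GCRMA expression of the 22 imprinted genes above background, with 1 symbol per mouse, 1 probe set per gene and dashed lines at each array's background threshold. For most genes the 3 mice lie within 0.5 of each other, and Dlk1, Meg3, Ppp1r9a and Airn are the most spread. Heights of different genes come from different probes and are not comparable.

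The excess of the spread of each gene over that of genes of like level was tested with limma across all 10610 genes. It called 0 genes at an adjusted p under 0.05, with 502 genes (4.73%) at an unadjusted p under 0.05 and a smallest adjusted p of 0.404. No member had an unadjusted p under 0.05, and the lowest, that of Meg3, was 0.051 (limma, adjusted p 0.976 with Benjamini-Hochberg, n = 3). Without mouse 3 it called 3 genes, none of them a member. The absence of calls does not show that the members were stable. Genes with far wider ranges were not called over the 3 mice either. The proximal tubule gene Miox, with a 20.0-fold range, had an unadjusted p of 0.0015 (limma).

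By the probe set that stood for each gene, the cluster of Dlk1, Meg3, Rian and Mirg held the 2 widest ranges of the 22 members, those of Dlk1 and Meg3. By single probe sets above background, 1 of Ppp1r9a (1.39 on the log2 scale) and 1 of Kcnq1ot1 (1.19) had wider ranges than Dlk1 (1.13). Dlk1, which encodes a membrane protein with EGF-like repeats that holds back fat cell differentiation and is expressed from the paternal chromosome, was at 5.20, 4.81 and 5.94 in mice 1, 2 and 3. Mouse 3 was highest and mouse 2 lowest, a 2.19-fold range. Its other probe set was below background in all mice (2.55, 2.10 and 2.27). With both averaged, mouse 3 lay 0.44 above the other mice, against 0.93 by the probe set above background. In mouse 3, 11 of 12 proximal tubule genes were highest too, though 10 of 12 were lowest in mouse 1. The actin 3′ minus 5′ difference was highest in mouse 3 (2.05), but that of Gapdh in mouse 2 (1.08). Both adrenal and neural genes above background, of 8 with a probe set, had the order of Dlk1 (mean levels 3.84, 3.55 and 4.03). Of 8 mesangial and pericyte genes 5 were highest in mouse 3, 2 in mouse 2 and 1 in mouse 1 (mean levels 10.78, 10.71 and 10.92). Art3, the only 1 of these with a 2-fold range, was at 9.36, 8.88 and 10.02. Their part in the value of Dlk1 was not tested.

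Meg3, the maternally expressed non-coding RNA of the cluster, was at 7.64, 8.57 and 7.87 in mice 1, 2 and 3 (8.03 ± 0.48, n = 3), so mouse 2 exceeded the other mice by 0.82 on average. The difference was 0.54 without mouse 3, where another probe set had the highest mean, and 0.44 when all probe sets were averaged. The gene has 11 probe sets, of which 5 were above background in all mice, and all 5 were highest in mouse 2. Their ranges ran from 0.64 to 1.32 on the log2 scale, and 2 of them exceeded 2-fold. These were the probe sets at 3.50, 4.83 and 3.70 and at 6.86, 7.95 and 7.31 in mice 1, 2 and 3. Probe sets of 1 gene read the same RNA on the same arrays and are not independent. In mouse 2, 5 of 6 distal nephron genes and 5 of 6 smooth muscle genes (mean levels 8.49, 8.71 and 8.33) were highest as well. The Gapdh 3′ minus 5′ difference was highest in mouse 2 (1.08), but that of actin in mouse 3 (2.05). Their part in the value of Meg3 was not tested.

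Rian, a maternally expressed host of small nucleolar RNAs, was at 5.36, 5.51 and 5.75 in mice 1, 2 and 3, a range of 0.40, through 1 of its 4 probe sets. Mirg, a host of microRNAs, was below background in all mice (2.31, 2.45 and 2.68), so its order cannot be read. Rian had its highest value in mouse 3, with a difference of 0.32 from the other mice, or 0.08 when all of its probe sets were averaged.

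**Figure D2:**
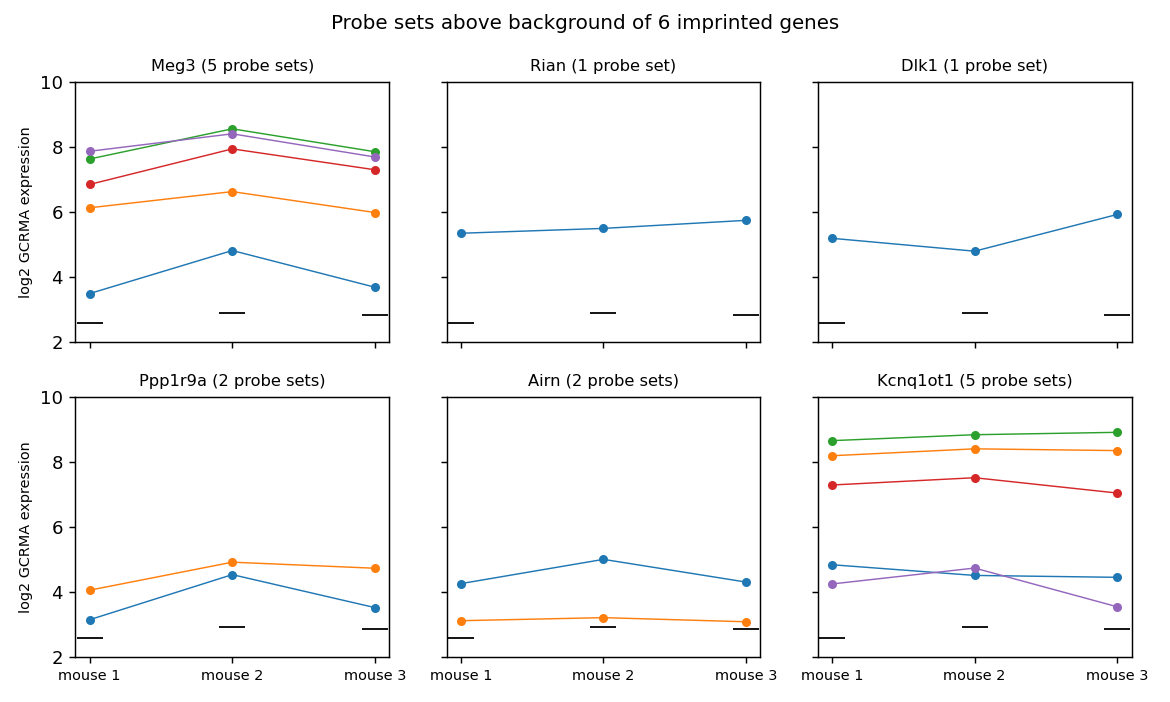
Log2 GCRMA expression by mouse for every probe set above background of Meg3, Rian, Dlk1, Ppp1r9a, Airn and Kcnq1ot1, with a line joining the values of 1 probe set and black bars at each array's background threshold. All 5 probe sets of Meg3 and both of Ppp1r9a peak in mouse 2, and the 5 probe sets of Kcnq1ot1 do not share 1 order.

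Airn and Kcnq1ot1 are paternally expressed non-coding RNAs that silence neighbouring genes in cis. Airn, the antisense partner of Igf2r, was at 4.25, 5.0 and 4.30 in mice 1, 2 and 3, with mouse 2 higher by 0.72, or by 0.14 when its 5 probe sets, dim ones included, were averaged. A further probe set of Airn was at 3.11, 3.21 and 3.08, also highest in mouse 2 and just over the threshold. Igf2r, which encodes the receptor that carries IGF2 to lysosomes, was at 9.31, 9.41 and 9.02, a range of 0.39. Kcnq1ot1 was at 8.65, 8.83 and 8.91 (8.80 ± 0.13, n = 3). Its 5 probe sets above background disagreed on the highest mouse (1, 3 and 1 of them in mice 1, 2 and 3), and 1 of the 5, at 4.24, 4.73 and 3.54, had a 2-fold range. Together with Meg3 and Rian these make 4 non-coding RNAs above background, and by the probe set that stood for them all 4 were lowest in mouse 1, where 33.3% of all genes were lowest. Other probe sets above background differed, as 3 of 5 of Kcnq1ot1, 2 of 5 of Meg3 and 1 of 2 of Airn were lowest in mouse 3. With all probe sets averaged, mouse 1 was 0.04 above the other mice for Kcnq1ot1. The probe set of the non-coding Mir675 and H19, outside the members, was highest in mouse 1 by 1.81. Among all 18 protein-coding members above background 6 were lowest in mouse 1. The 3′ minus 5′ differences of the actin and Gapdh control probe sets were also lowest in mouse 1 (1.49 and 0.48), and their part was not tested.

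**Figure D3:**
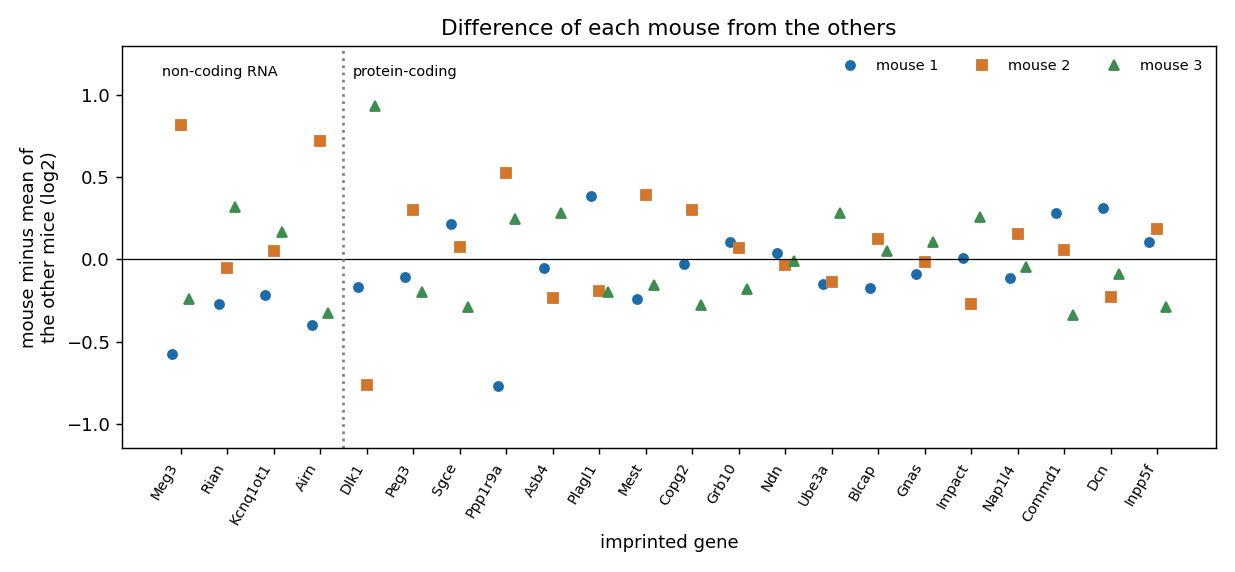
Difference of each mouse from the mean of the other mice, on the log2 scale, for the 22 imprinted genes above background, non-coding RNAs left of the dotted line and protein-coding genes right of it. Each gene is drawn by 1 probe set, and with all probe sets averaged mouse 1 moves to 0.04 for Kcnq1ot1. Mouse 2 is at 0.82 for Meg3 and 0.72 for Airn, and Dlk1 is at 0.93 in mouse 3 and at −0.76 in mouse 2.

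Plagl1, a zinc finger transcription factor that slows the cell cycle and acts on other imprinted genes in the mouse, was at 13.12, 12.73 and 12.73 in mice 1, 2 and 3, with mouse 1 higher by 0.39. Its 3 probe sets did not all agree. One was at 5.13, 4.28 and 4.31, also highest in mouse 1, and another at 3.58, 4.39 and 3.85, lowest in mouse 1. The probe sets that did not stand for the gene had wider ranges (0.81 and 0.84). Grb10, an adaptor that damps signalling from the insulin and IGF1 receptors, was at 8.36, 8.34 and 8.17, a range of 0.19. Peg3, a zinc finger protein, was at 9.70, 9.98 and 9.64. Its neighbours Usp29, of the deubiquitinase family (2.54, 2.34 and 2.44), and Zim1, another zinc finger gene (1.73, 1.78 and 1.81), were below background in all mice. Usp29 shares its start region with Peg3, as the sequences above show.

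Ndn, which encodes the growth suppressor necdin, had the smallest SD of the 22 members, with 9.11, 9.06 and 9.08 in mice 1, 2 and 3 (9.09 ± 0.02, n = 3). Of its 8 probe sets 5 were above background, with ranges of 0.04 to 0.38. Ndn lies in the mouse counterpart of the region deleted in human Prader-Willi and Angelman syndromes, and the other members there differed in whether they were measured. Ube3a, the ubiquitin ligase gene of Angelman syndrome, was at 11.39, 11.40 and 11.68. Magel2, a relative of Ndn, was below background (1.93, 1.91 and 1.99), as was the only probe set of Snrpn alone (2.37, 2.53 and 2.34). Mkrn3, a makorin ring finger gene, passed the threshold in mouse 2 only (2.46, 3.02 and 2.77), and Peg12, which encodes a GSK3-binding protein, in mouse 1 only (2.85, 2.70 and 2.62). The threshold of mouse 1 (2.58) was the lowest, and the value of Peg12 there was under those of mice 2 and 3 (2.91 and 2.86). A value below background bounds the signal of that probe set and does not show that the gene was silent.

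On the cluster of Peg10 and Sgce, Sgce, which encodes a sarcoglycan of the membrane, was at 8.88, 8.79 and 8.54 in mice 1, 2 and 3. Ppp1r9a, which encodes the actin-binding protein neurabin, was at 4.05, 4.91 and 4.73, with mouse 1 at −0.77 from the other mice, or at −0.31 when all of its probe sets were averaged. Another of its probe sets was at 3.14, 4.53 and 3.52, a 2-fold range, and both were lowest in mouse 1 and highest in mouse 2. Asb4, a substrate adaptor of ubiquitin ligases, lay just over the threshold (3.08, 2.96 and 3.31). Peg10, a gene derived from a retrotransposon and active in placenta (1.97, 1.75 and 1.96), and Calcr, the calcitonin receptor gene (1.77, 1.77 and 1.59), were below it in all mice.

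Mest, of the hydrolase family, was at 8.18, 8.60 and 8.24 in mice 1, 2 and 3, and Copg2, a subunit of the COPI vesicle coat that lies beside it, at 7.08, 7.30 and 6.92. Both were highest in mouse 2. Gnas, which encodes the stimulatory G protein alpha subunit, was at 13.65, 13.70 and 13.78, close to the highest value of each array (14.66 to 14.76), which may compress differences. Its probe sets at 3.75, 4.53 and 4.13 and at 3.93, 4.58 and 4.69 had wider ranges (0.78 and 0.76), and all 3 probe sets above background were lowest in mouse 1.

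Nap1l4, a histone chaperone gene, was at 9.66, 9.84 and 9.71 in mice 1, 2 and 3, while its relative Nap1l5 was below background (1.87, 2.38 and 1.83). Impact, an inhibitor of the GCN2 stress kinase pathway, was at 9.43, 9.24 and 9.59, and both of its probe sets above background were lowest in mouse 2. Commd1, a regulator of copper handling and NF-kB, was at 9.68, 9.53 and 9.27, lowest in mouse 3 by 0.34. The ranges of Nap1l4, Impact and Commd1 were under 0.5 on the log2 scale. Inpp5f, a phosphoinositide phosphatase gene, was at 7.58, 7.63 and 7.31, and its 3 probe sets each had a different highest mouse. Blcap was at 7.67, 7.87 and 7.82, and Nnat, the neuronatin gene that lies inside Blcap, was below background (1.71, 1.61 and 1.69).

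Dcn, which encodes the matrix proteoglycan decorin of fibroblasts, lay just over the threshold at 3.50, 3.14 and 3.23 in mice 1, 2 and 3. Of 9 interstitial fibroblast markers with a probe set 4 were above background (Col1a2, Col3a1, Pdgfra and Pi16), with mean levels of 9.68, 9.78 and 9.60. Lum, Dpt, Fbln1, Mfap5 and Col1a1 were below background in all mice. Ddc, the aromatic amino acid decarboxylase gene beside Grb10, was below background in all mice (2.07, 2.64 and 2.50). Its enzyme is known to be made in proximal tubule, and 12 of 14 proximal tubule markers were above background on every array. Phlda2 and Ascl2, maternally expressed genes with roles in the placenta, were also below it, with highest values of 1.58 and 2.0.

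**Figure D4:**
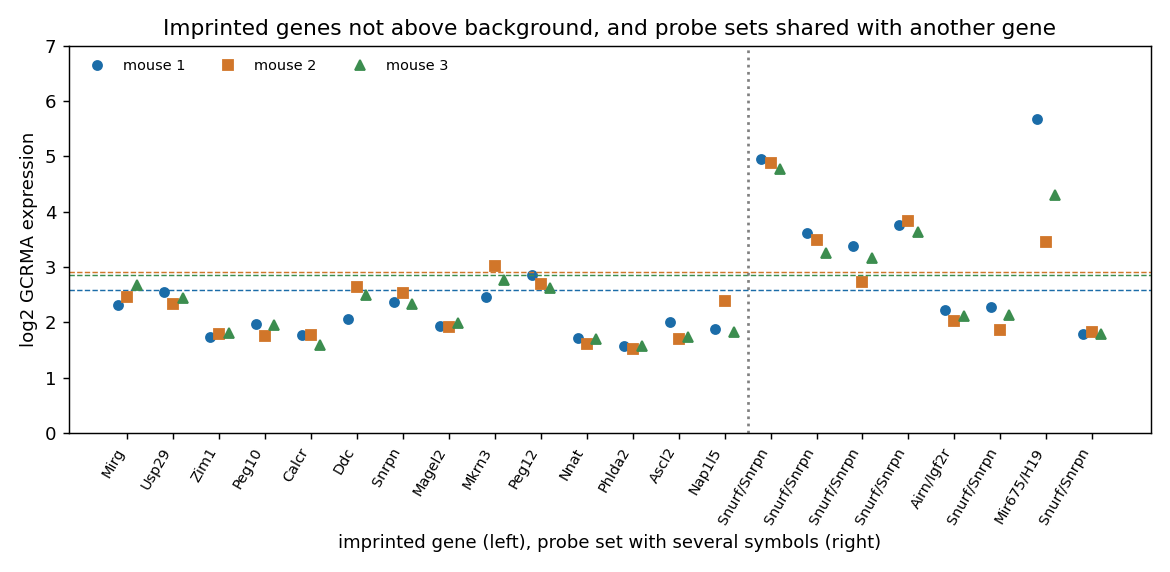
Log2 GCRMA expression by mouse of the 14 imprinted genes not above background in all mice (left of the dotted line) and of the 8 probe sets annotated to an imprinted gene together with another symbol (right), with dashed lines at each array's threshold. The 14 genes lie near or under the lines, and the probe set of Mir675 and H19 is at 5.69, 3.46 and 4.30 in mice 1, 2 and 3.

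By the parental chromosome usually expressed, the members above background numbered 4 of 8 maternally expressed genes, 9 of 17 paternally expressed genes and 9 of 11 genes whose imprint is known in some tissues only, against 58.3% of all genes. Of genes encoding protein 18 of 31 were above background, and of non-coding RNAs 4 of 5. The first promoter windows of the members above background held a median of 14 CpG (18 genes), against 17 for members not above it in all mice (13 genes). Over all genes the medians were 21 CpG for 8642 genes above background and 7 for 5811 genes not above it. These counts are descriptive, and the groups of members are small.

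Imprinted genes outside the 40 were counted as well, with no split by the tissues in which they are imprinted. Of 30 that had a probe set, 21 passed the threshold on every array (70.0%, against 58.3% of all genes). Their median SD was 0.11, against 0.16, and 2 of 21 had a 2-fold range, against 5.94%. Gatm, an enzyme gene of creatine synthesis that is strong in proximal tubule, was at 7.53, 8.72 and 8.99 in mice 1, 2 and 3. Slc22a18, a transporter gene of the Kcnq1ot1 cluster, was at 2.78, 2.97 and 4.13, just over the threshold in mice 1 and 2 (2.58 and 2.91). Both were highest in mouse 3, as were 11 of 12 proximal tubule genes, and their part was not tested. Among the 21, limma called 0, and these 2 had an unadjusted p under 0.05.

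Genes of the imprint and DNA methylation machinery, Tet1, Tet2 and Tet3 included, were counted in the same way. Of 19 that had a probe set, 15 passed the threshold on every array (78.9%, against 58.3% of all genes). Their median SD was 0.17, against 0.16, and 0 of 15 had a 2-fold range, against 5.94%. The maintenance methyltransferase gene Dnmt1 was at 8.69, 8.62 and 8.68 in mice 1, 2 and 3, and Trim28, the corepressor that ZFP57 recruits, at 9.46, 9.76 and 9.74. Ctcf, which insulates several imprinted clusters, was at 9.90, 10.19 and 10.16. Zfp57 itself was below background (2.50, 2.59 and 2.42), as were the germ cell factors Dnmt3l and Dppa3. Uhrf1, a partner of DNMT1 in dividing cells, was above background in mouse 1 only (2.67, 2.37 and 2.34), where the threshold was lowest (2.58).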

How the data were processed

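Glomerular RNA of 3 FVB mice was read on 3 Affymetrix arrays. The deposited values are log2 expression values that the authors made with GCRMA, per the submitters' processing notes. GCRMA corrects background by probe sequence, brings arrays to a common distribution and summarises each probe set. That they are log2 was taken from their range (0.67 to 14.76), since the labels do not say. The set of arrays normalised together is not given in the sources here. GCRMA ties many dim probe sets, which lowers their SD. Replicate numbers come from the titles, and 0 columns of sample values were left unused. The values were used as deposited.

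Gene names came from the platform annotation, and 932 with several symbols were used for no gene. A gene had to exceed the threshold on all 3 arrays to be tested. The spread was tested with limma 3.58.1 in R 4.3.3 (variance prior with trend and robust fit, upper tail, Benjamini-Hochberg over all genes). The procedure was run on simulated data in which the SD of some genes was raised by large factors. Its power for smaller spreads, those of the members included, was not tested. The number of arrays and signal over background limit the precision. Promoters and the microRNA sequences are from RefSeq (GRCm38.p6). All 40 members were accounted for, members above background were named, and genes of the other lists were counted. The members, lists and tests were chosen with earlier results of these data known. The alternatives were the mean over probe sets, single probe sets, thresholds at the 90th and 99th percentile, no filter, quantile normalisation, median centring, a plain variance prior and leaving out each mouse.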

Additional observations from a re-analysis of the deposited data

Results flagged for a closer look

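Probe sets annotated to an imprinted gene and another symbol entered no comparison, and 4 of the 8 had a signal above background in all mice, where no control samples exist. The probe set of Mir675 and H19 averaged 4.48 and was at 5.69, 3.46 and 4.30 in mice 1, 2 and 3, with mouse 1 highest by 1.81 and a 4.69-fold range. H19 is a maternally expressed non-coding RNA that is high in fetal tissue, and Mir675 is made from within it, so both symbols name 1 primary transcript. The array does not measure the mature microRNAs, whose RefSeq sequences (GRCm38.p6, minus strand) are given with the seed, bases 2 to 8, in capitals.
miR-675-5p: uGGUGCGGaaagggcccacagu
miR-675-3p: cUGUAUGCccuaaccgcucagu
In mouse 1, 5 of 7 leukocyte genes were also highest and 10 of 12 proximal tubule genes lowest. The leukocyte genes differed from the probe set in the lowest mouse, as 6 of 7 were lowest in mouse 3. Of 10 glomerular endothelial genes 8 were highest in mouse 1 (mean levels 11.49, 11.29 and 11.33), with 5 lowest in mouse 2 and 5 in mouse 3. The part of these cell types in the value of the probe set was not tested.

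Of 6 probe sets annotated to Snurf and Snrpn, which share a transcript, 3 passed the threshold on every array, with means of 4.87, 3.45 and 3.74 and ranges of 0.19, 0.35 and 0.20 on the log2 scale. The probe set of Snrpn alone was below background, so its value does not stand for the locus.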

How the results depend on the processing

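The number of members above background was 22 and lay between 20 and 24 under the other thresholds, the mean over probe sets, both further normalisations and each left-out mouse, and it was 50 when every probe set counted on its own. The number of members with a 2-fold range was 1 (Dlk1), 0 with the mean over probe sets, 5 by single probe sets, and 0 to 1 without each mouse in turn (0 without mouse 2 or mouse 3). The median SD of the members was 0.18 and lay between 0.10 and 0.20 under all alternatives run. The number of genes with a 2-fold range was 630, 1086 by single probe sets, 431 with the mean over probe sets, and 319 to 371 without each mouse, where fewer mice were compared. Genes called for excess variance numbered 0, and 0 to 3 without each mouse (3 without mouse 3), and no member was called under any alternative run. For each member, the difference of the mouse farthest from the others was recomputed. The other thresholds, no filter and the plain variance prior leave these values as they are, so they could not turn the direction. With a mouse left out, it could turn only where another probe set came to stand for the gene. Over all settings, those included, 192 of 194 recomputed member values kept their direction. The exceptions were Ube3a (−0.13) and Kcnq1ot1 (0.04) with the mean over probe sets. That setting, which averages in dim probe sets, also moved 9 values by over 1 SD, these 2 included, with Peg3 at 0.0085 (from 0.30), Inpp5f at −0.00052 (from −0.29) and Sgce at −0.099 (from −0.29). The count of members above background without a filter was not run, since nothing is then filtered. No paired analysis was possible because there is only 1 group. Signal over background limits Asb4, Dcn, Airn and other dim members.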
